A study of Mus musculus with 16 samples.

Results

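The genes described here make ribosomes and the building blocks of RNA and DNA. They are 43 genes of the nucleolus and of nucleotide and polyamine synthesis that the transcription factor Myc is known to activate, with the transferrin receptor. They were taken by symbol from a list, and the list was chosen with earlier results of these data known. The list holds 33 nucleolar genes and 10 genes of nucleotide, polyamine and iron metabolism. Of the 43, 41 had a probe set named for them alone, and all 41 passed the filter on low intensities, out of 12580 genes that passed it. The probe set for Mrto4 was also named for other loci, and none was named for Impdh2, so neither is reported.

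A ribosome is built in the nucleolus. RNA polymerase I transcribes the large ribosomal precursor RNA, box C/D ribonucleoproteins guide its methylation, the U3 particle and the small subunit processome cut and fold its first part, and a second series of factors, among them the PeBoW complex, shapes the large subunit. Purine and pyrimidine synthesis supply the nucleotides, ornithine decarboxylase and spermidine synthase make polyamines, and the transferrin receptor takes up iron, which ribonucleotide reductase needs. In skin these genes are most active in growing cells, such as the matrix of the anagen hair follicle and the basal layer of the epidermis. Myc binds the E-box CACGTG, and many of these genes are textbook targets of Myc.

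The samples were dorsal skin of iK5-TERT mice, which carry a K5tTA and a tetop-TERT transgene. The K5 promoter drives the tetracycline transactivator in the basal layer and the outer root sheath, the bulge included, which directs the transgene to these cells. All mice had received doxycycline in the drinking water (5 µg/ml) early in life and were at day 60. The 2 TERT-on mice were injected with PBS vehicle and the 2 TERT-off mice with doxycycline (8 µg/g), which shuts off the transgene. No array held a mouse without the transgenes given doxycycline, so loss of TERT and doxycycline itself cannot be told apart. Each mouse gave serial biopsies at 0, 6, 12 and 24 h, so the 16 arrays formed 8 groups of 2. By the labels the TERT-off animals were already injected at 0 h, whereas the methods place these biopsies just before the injection. Mice are called mouse 1 and mouse 2 of their cohort, after the number in the labels.

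Tert fell after 0 h in both cohorts and stayed higher in TERT-on. In the TERT-off mice its intensity was 185 and 199.9 at 0 h, and between 8.32 and 16.1 on the 6 arrays of 6 to 24 h. The TERT-on mice read 357 and 216 at 0 h and between 22.6 and 64.6 later, although they were labelled TERT-on. Every later TERT-on array stayed above every later TERT-off array. The log2 difference over 6 to 24 h, TERT-off minus TERT-on, was -1.76 ± 0.26 (SE, limma adjusted p = 0.0028). The change from 0 h to the later arrays was -3.97 ± 0.34 within TERT-off and -2.75 ± 0.34 within TERT-on, both called, and these changes differed by -1.23 ± 0.48, which did not pass (limma adjusted p = 0.332).

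Keratinocyte markers were measured on every array, with a mean log2 intensity of 9.98 to 10.76 for 7 basal genes and of 11.11 to 11.61 for 7 suprabasal genes. Other cell types differed between the cohorts, some of them at 0 h already. The mean of 10 hair shaft keratins was 4.06 to 4.40 on all 4 arrays of TERT-off mouse 1, 0 h included. TERT-off mouse 2 went from 11.15 at 0 h and 10.87 at 6 h to 6.79 and 5.95, and the TERT-on mice lay between 8.97 and 11.22. Over 6 to 24 h, all 9 macrophage markers, 4 of 5 neutrophil markers and 5 of 6 fibroblast markers were called higher in TERT-off, and 5 of 6 melanocyte markers lower. Limma called 16.9% of all genes higher and 12.6% lower. At 0 h, TERT-off minus TERT-on was 0.91 for the mean of the macrophage markers, 1.17 for neutrophil and -0.31 for melanocyte markers. Over 6 to 24 h these were 1.39, 1.58 and -1.87. These differences of means were not tested. In bulk skin, fewer cells of a type and less RNA per cell cannot be told apart. One array was poor in RNA quality, that of TERT-on mouse 1 at 0 h, whose 5′ to 3′ Gapdh ratio was 0.0599, against 0.977 to 1.12 on the others.

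The E-box was looked for, as the letters CACGTG, which read the same on both strands, in the 250 bases before each annotated start (RefSeq, GRCm38.p6). Of the 37 members with such a window, 5 held it (13.5%), against 6.86% of 27025 genes. The sites are shown with their neighbouring bases. Over 6 to 24 h Nop2 and Nme1 were called lower in TERT-off and Paics higher, Imp4 was not called, and Impdh2 was not measured. Limma called 12.6% of all genes lower and 16.9% higher. A link between the E-box and these calls was not tested. Capitals mark the E-box, and each run is read along the strand of the gene.
Nop2: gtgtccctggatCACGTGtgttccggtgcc
Nme1, downstream start: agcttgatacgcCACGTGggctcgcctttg
Nme1, upstream start: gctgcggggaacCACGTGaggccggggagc
Imp4: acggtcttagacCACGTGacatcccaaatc
Impdh2: gagctcgataagCACGTGgttacccagctc
Paics: cgcctcggaaagCACGTGgagggacctgct
The Nop2 site lay at chr6:125131811-125131840 on the plus strand, with the first base of the E-box 60 bases before the start. The Nme1 sites lay at chr11:93968037-93968066 and chr11:93968273-93968302 on the minus strand, 29 and 18 bases before their starts. The Imp4 site lay at chr1:34439696-34439725 and the Impdh2 site at chr9:108560314-108560343, both on the plus strand. The Paics site, at chr5:76951087-76951116 on the plus strand, was 203 bases before the start. Paics and Ppat, which share the purine pathway, are neighbours that are read in opposite directions, and the annotated Ppat gene spans the Paics window. Nop2, which showed a low level at 6 h in TERT-off, had a window that no other annotated gene spans, chr6:125131633-125131882, and it is printed whole.
Nop2, 250 bases before the start: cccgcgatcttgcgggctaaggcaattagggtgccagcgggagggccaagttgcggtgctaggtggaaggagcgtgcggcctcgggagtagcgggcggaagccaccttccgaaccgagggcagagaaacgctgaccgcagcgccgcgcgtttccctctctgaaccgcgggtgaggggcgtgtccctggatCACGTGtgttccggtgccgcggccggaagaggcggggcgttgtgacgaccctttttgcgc
A match is a description of these letters only. The windows of Cad, Odc1, Wdr74, Tfrc, Ppan and Rrp9 held no CACGTG, and no window was given for Srm, Rrp12, Fbl, Bop1, Npm1 or Rrs1.

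At 0 h the members as a group stood at a like level in the cohorts. The TERT-off mice started at a mean log2 intensity of 7.99 and 8.08, the TERT-on mice at 8.11 and 7.95, so the arrays of the cohorts interleaved. The median difference was 0.03, with 21 members positive and 20 negative. None of the 41 was called by limma at 0 h, where 0.0397% of all genes were, and none had an unadjusted p under 0.05, where 7.92% of all genes had. Both TERT-off arrays lay below both TERT-on arrays for 8 members, where 18% of all genes did so, and above them for 6, where 14.6% did. The 8 were Fbl, Noc4l, Bop1, Wdr74, Nop2, Rrs1, Grwd1 and Odc1, and all of them except Noc4l and Odc1 were called lower over 6 to 24 h below. Grwd1 was at -0.40 at 0 h, not called, and at -0.51 over 6 to 24 h. The poor TERT-on array belongs to this time.

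At 6 h the members were low in TERT-off. Their mean was 7.43 and 7.93 in TERT-off mice 1 and 2, with the TERT-on mice at 8.40 and 8.31. Both TERT-off arrays lay below both TERT-on arrays for 34 of the 41 members, where 23.5% of all genes did so, and above them for Paics alone, where 29.1% of all genes did. The median difference was -0.80, against 0.04 over all genes, and 39 of 41 differences were negative. Limma called 7 members lower and none higher, where 0.596% of all genes were called lower and 1.14% higher, and at an unadjusted p under 0.05 there were 30 lower and 1 higher, where 9.6% of all genes were lower and 13.9% higher at that p. The 7 were Srm and Odc1 of polyamine synthesis, Rrp9 of the U3 particle, Rrp12, which acts in the export of subunits, and the large subunit factors Nop2, Ppan and Wdr74. This count rests on single mice. It was 0 without TERT-off mouse 1, without its 6 h array alone, or without either TERT-on mouse, 4 without the poor 0 h array, and 24 without TERT-off mouse 2.

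Both cohorts contributed to the gap at 6 h. From 0 to 6 h, 26 of 41 members fell in both TERT-off mice, where 27.9% of all genes did, and 31 of 41 rose in both TERT-on mice, where 26.4% did. The mean of the members moved from 7.99 to 7.43 and from 8.08 to 7.93 in the TERT-off mice. It moved from 8.11 to 8.40 and from 7.95 to 8.31 in the TERT-on mice, where the first starting value is that of the poor array. A step of 0 to 6 h within a cohort was not tested.

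**Figure D1:**
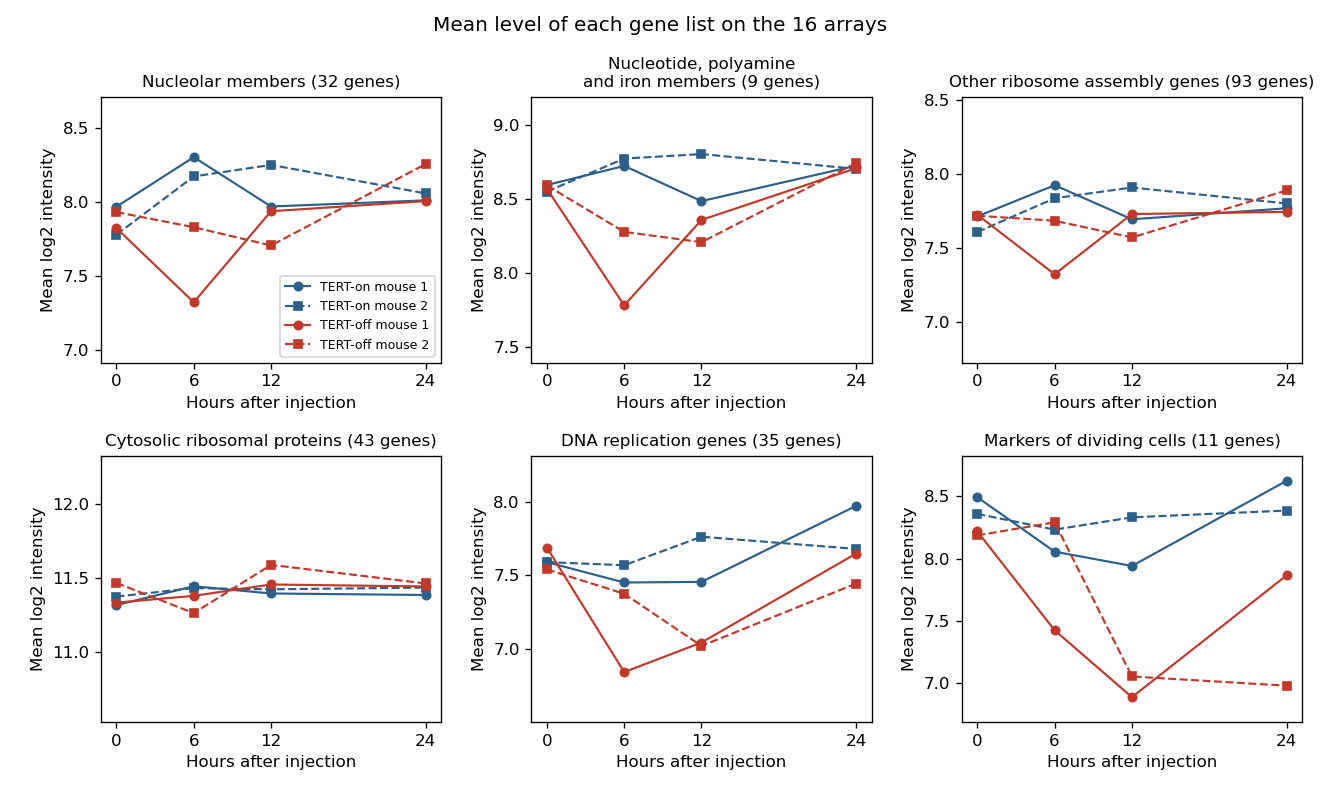
Mean log2 intensity (y axis) of 6 gene lists against hours after injection (x axis), 1 point per array, with TERT-off in red and TERT-on in blue, solid lines for mouse 1 and dashed lines for mouse 2. In both member panels the TERT-off lines lie below the TERT-on lines at 6 h and close to them or above at 24 h. The dividing cell markers are lower in both TERT-off mice at 24 h, and at 6 h in TERT-off mouse 1 only. The y axes span the same range except in the last panel.

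The TERT-off mice did not reach their lowest level at the same time. In mouse 1, 32 of 41 members had their lowest value of the 4 times at 6 h, where 25.6% of all genes did. In mouse 2 this held for 10 members at 6 h, where 28.3% of all genes did, and for 24 members at 12 h, where 20% did. The mean of the members in mouse 1 was back at 8.03 by 12 h, while in mouse 2 it was lowest then, at 7.82. In mouse 2, 32 of 41 members had their highest value of the 4 times at 24 h, where 24.2% of all genes did. The arrays that hold the lowest value of a member were mostly that of TERT-off mouse 1 at 6 h, for 30 of 41, where 13% of all genes had theirs.

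At 12 and 24 h no member was called by limma, where 2.57% and 2.42% of all genes were. At 12 h the median difference was -0.31, and at an unadjusted p under 0.05 there were 11 lower and 1 higher, the latter Paics, where 11.8% of all genes were lower and 18.1% higher at that p. Both TERT-off arrays lay below both TERT-on arrays for 21 of 41, where 27.8% of all genes did. At 24 h the median was 0.12, with 27 positive and 14 negative differences. Both TERT-off arrays then lay above both TERT-on arrays for 15 members, where 29.7% of all genes did, and below them for 6, where 28.2% did. The 6 were Fbl, Nop56, Wdr74, Cad, Umps and Tfrc, the last by 872.9 against 873.7 in mouse 1 of each cohort. At an unadjusted p under 0.05, 2 members were higher and none lower at 24 h, namely Srm and Rrp12, where 12.1% of all genes were higher and 10.6% lower at that p, so the members were below the share of all genes. The count at 12 h was 2 with each mouse as a fixed effect, without TERT-off mouse 1 or without its 6 h array, and 1 with the replicate number as a block or without TERT-off mouse 2. The count at 24 h was 0 under every alternative listed at the end.

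Between 6 and 24 h the direction differed by cohort. The mean of the members moved by 0.74 and 0.44 in the TERT-off mice and by -0.23 and -0.10 in the TERT-on mice. Of the 41 members, 25 rose in both TERT-off mice and fell in both TERT-on mice, where 7.07% of all genes did so, and none did the opposite, where 6.74% did. The change of the effect from 6 to 24 h had a median of 0.73, against -0.04 over all genes, and 39 of 41 were positive. Limma called 2 members, Srm and Rrp12, both positive, where 0.207% of all genes were called positive. At an unadjusted p under 0.05 there were 21 positive and none negative, where 5.45% of all genes were positive and 4.94% negative at that p. Within TERT-off, 4 members were called higher at 24 h than at 6 h, Srm, Rrp12, Rrp9 and Odc1, where 0.866% of all genes were. Within TERT-on none of the 41 was called, where 0% of all genes were, and none had an unadjusted p under 0.05, where 3.04% of all genes had. Without any 1 of the 4 mice, or without the 6 h array of TERT-off mouse 1, neither Srm nor Rrp12 was called for the change of the effect. The count within TERT-off was then 1 without TERT-off mouse 1, 2 without that array and 0 without any other mouse.

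Srm, spermidine synthase, read 267, 138, 315 and 446 in TERT-off mouse 1, where the values of each member are intensities in the order 0, 6, 12 and 24 h. In TERT-off mouse 2 it was 286, 177, 252 and 549. In TERT-on mouse 1 it was 243, 428, 350.3 and 362, and in TERT-on mouse 2 it was 294, 414, 417 and 361. The TERT-off mice were below both TERT-on mice at 6 and 12 h and above both at 24 h. The difference was -1.43 ± 0.18 at 6 h (log2, SE, limma adjusted p = 0.0176) and 0.45 ± 0.18 at 24 h (adjusted p = 0.198). The effect at 24 h exceeded that at 6 h by 1.88 ± 0.25 (limma adjusted p = 0.017).

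Rrp12 showed the same crossing. Its intensity was 78.2, 48.0, 99.7 and 173 in TERT-off mouse 1 and 91.0, 56.3, 87.5 and 162 in TERT-off mouse 2. TERT-on values were 64.0, 140.0, 98.6 and 97.2, and 84.9, 119.8, 137 and 101. At 24 h both TERT-off mice were above every TERT-on array. The difference was -1.32 ± 0.20 at 6 h (limma adjusted p = 0.0254) and 0.76 ± 0.20 at 24 h (adjusted p = 0.0786), and the effect changed by 2.07 ± 0.28 (adjusted p = 0.017).

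Odc1, ornithine decarboxylase, the first enzyme of polyamine synthesis, read 928, 503, 861 and 1272 in TERT-off mouse 1 and 1073, 824, 712 and 1664 in TERT-off mouse 2. The TERT-on mice read 1331, 1469.7, 773 and 1288, and 1236, 1398, 1216 and 1149. TERT-off was below TERT-on without overlap at 0 h (-0.36, not called) and at 6 h, and the cohorts overlapped at 12 and 24 h. The difference was -1.16 ± 0.25 at 6 h (limma adjusted p = 0.0454), and the change of the effect, 1.41 ± 0.34, did not pass (adjusted p = 0.199). Its 3 probe sets gave -1.09 to -1.38 at 6 h, of which only the reported one was called. The others had a limma adjusted p of 0.0862 and 0.0921. The reported one is of a kind that shares probes with other transcripts.

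Nop2, a methyltransferase of the large subunit RNA, read 268, 167, 259 and 269.8 in TERT-off mouse 1 and 261, 214, 221 and 344 in TERT-off mouse 2. In TERT-on they were 310.1, 402, 261 and 292, and 271, 350.2, 359.7 and 300.0. Its difference was -0.99 ± 0.20 at 6 h (limma adjusted p = 0.0408) and 0.04 ± 0.20 at 24 h. Ppan, another large subunit factor, read 233, 110.4, 215 and 259, and 255, 179, 216 and 311 in the TERT-off mice. It read 181, 329, 258 and 234, and 225, 300.1, 329 and 306 in the TERT-on mice. The Ppan difference went from -1.16 ± 0.23 at 6 h (limma adjusted p = 0.0379) to 0.08 ± 0.23 at 24 h. For both genes the cohorts were apart at 6 and 12 h and overlapped at 24 h, and neither change of the effect was called (adjusted p = 0.242 and 0.215).

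Rrp9, a protein of the U3 particle, read 107, 90.4, 151 and 169 in TERT-off mouse 1 and 147, 99.0, 109.9 and 222 in TERT-off mouse 2. The TERT-on mice read 127, 207, 217 and 182, and 156, 198, 206 and 184. At 24 h 1 TERT-off mouse was below and the other above both TERT-on mice. The difference was -1.10 ± 0.21 at 6 h (limma adjusted p = 0.0379) and 0.08 ± 0.21 at 24 h.

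**Figure D2:**
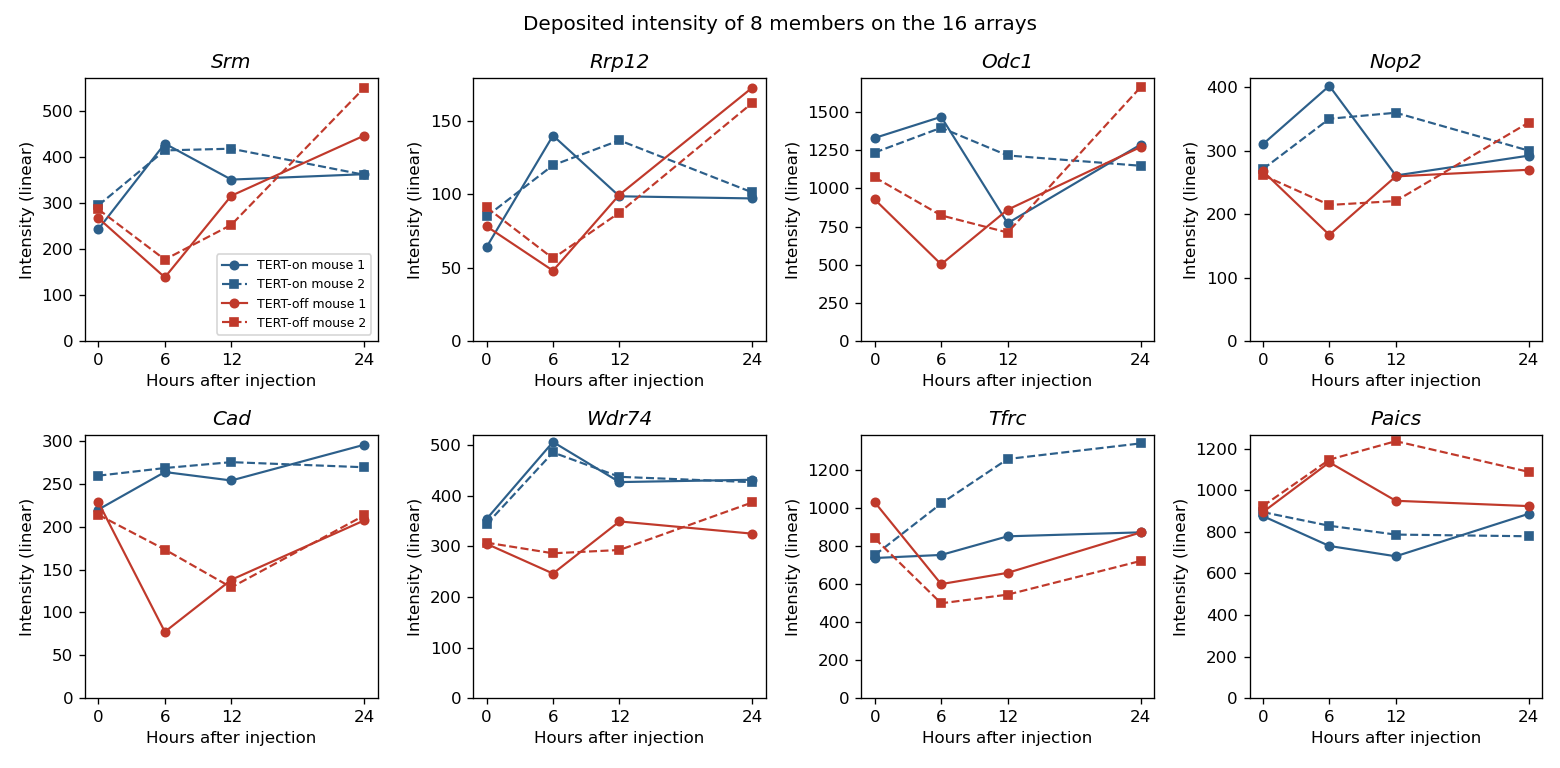
Deposited intensity (y axis, linear, from 0) of 8 members against hours after injection (x axis), 1 point per array, with TERT-off in red and TERT-on in blue. Srm and Rrp12 are below the TERT-on mice at 6 h and above them at 24 h, Cad and Wdr74 stay below at every time after the injection, and Paics stays above.

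Over 6 to 24 h together, 14 of the 41 members were called lower in TERT-off and 1 higher, where limma called 12.6% of all genes lower and 16.9% higher. The median difference was -0.29, against 0.04 over all genes, and 35 of 41 were negative. By role the called members were Polr1a of RNA polymerase I (1 of 3), Fbl and Rrp9 of the box C/D and U3 particles (2 of 4), Bop1 of PeBoW (1 of 3), Wdr74, Nop2, Rrs1, Ppan and Grwd1 of the large subunit (5 of 9), and the phosphoprotein Nolc1. None of the 7 members of the small subunit processome was called, although all 7 differences were negative, from -0.31 to -0.06, and 2 further probe sets of Noc4l were called lower. In metabolism, Cad, Srm, Nme1 and Tfrc were lower and Paics higher. This count depended on the TERT-on mice: without mouse 1 of that cohort it was 1 (Tfrc) and without mouse 2 it was 0, where calls over all genes went from 3710 to 574 and 38. It was 10 without TERT-off mouse 1 or without its 6 h array, and with 12 and 24 h only it was 4, namely Cad, Wdr74, Tfrc and Paics.

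Cad, which carries the first steps of pyrimidine synthesis, had the largest difference among the members. Its intensity was 228, 77.3, 138 and 207 in TERT-off mouse 1 and 214, 173, 129 and 213 in TERT-off mouse 2. The TERT-on mice read 220.0, 264, 254 and 296, and 259.5, 268, 275 and 269. From 6 h on every TERT-off array lay below every TERT-on array. The difference over 6 to 24 h was -0.87 ± 0.17 (limma adjusted p = 0.00681), and a second probe set gave -0.77 ± 0.23 (adjusted p = 0.030). Unlike Srm, Cad was still at -0.42 ± 0.28 at 24 h, a value that did not pass (adjusted p = 0.444).

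Wdr74, a nucleolar factor of the large subunit, was the other member whose later arrays did not overlap downward. This held for 4.83% of all genes, a share near that of the members. Its intensity was 305, 246, 349.6 and 325, and 308, 287, 293 and 387 in the TERT-off mice. TERT-on arrays gave 354, 507, 427 and 432, and 344, 486, 438 and 427. The TERT-off arrays were already the lower at 0 h. The difference over 6 to 24 h was -0.54 ± 0.09 (limma adjusted p = 0.00385).

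Tfrc, the transferrin receptor, read 1033, 601, 660.2 and 873 in TERT-off mouse 1 and 842, 499.6, 545 and 723 in TERT-off mouse 2. It read 738, 755, 853 and 874, and 754, 1026, 1260.3 and 1343 in the TERT-on mice. The TERT-off mice started above both TERT-on mice, a difference of 0.32 ± 0.23 that was not called (limma adjusted p = 0.726). They were below both at 6 and 12 h. At 24 h mouse 1 of each cohort was nearly equal, at 872.9 in TERT-off and 873.7 in TERT-on. The difference was -0.64 ± 0.14 over 6 to 24 h (limma adjusted p = 0.00984). A second, dimmer probe set gave -0.15 ± 0.19 (adjusted p = 0.597), and the mean of its probe sets was not called. Without TERT-on mouse 1 the difference was -0.91, and without TERT-on mouse 2 it was -0.37. The call was lost on leaving out 1 mouse of either cohort, depending on the mouse.

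Paics, which carries middle steps of purine synthesis, went the other way. It read 895, 1135, 950.0 and 924, and 925, 1148, 1237 and 1089 in the TERT-off mice. It read 876, 732, 683 and 887, and 896, 829.7, 787 and 779 in the TERT-on mice. From 6 h on all TERT-off arrays lay above all TERT-on arrays, which held for 6.59% of all genes. The difference was 0.46 ± 0.09 (limma adjusted p = 0.00629), with 0.38 ± 0.10 for a second probe set (adjusted p = 0.015) and 0.03 ± 0.13 for the dimmest one. The other purine genes measured lay on the other side at 6 h, with Ppat, the first enzyme and the neighbour of Paics, at -0.57 ± 0.26 and Gart at -0.83 ± 0.24, neither called.

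Fbl, fibrillarin, the methyltransferase of the box C/D particle, read 596, 596, 837 and 892 in TERT-off mouse 1 and 896, 755.0, 748 and 1069 in TERT-off mouse 2. TERT-on values were 941, 1209, 983 and 1093, and 944, 1171, 1184 and 1134. Its difference over 6 to 24 h was -0.49 ± 0.11 (limma adjusted p = 0.0118), and its second probe set gave -0.62 ± 0.12 (adjusted p = 0.00652). Bop1 of PeBoW read 110.4, 93.3, 141 and 159.0, and 174, 165, 142 and 197 in the TERT-off cohort. In TERT-on it was at 179, 257, 210.4 and 189.9, and at 179, 241, 237 and 246. Its difference was -0.65 ± 0.16 (limma adjusted p = 0.015), and a second probe set gave -0.27 ± 0.13 (adjusted p = 0.136). For both genes the cohorts overlapped after 0 h by 1 array of each, and both genes were already low in TERT-off mouse 1 at 0 h, when neither difference was called. The partners of Bop1, Pes1 and Wdr12, were at 0.09 ± 0.11 and -0.22 ± 0.15, neither called.

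The nucleolar phosphoproteins Npm1 and Ncl differed little between the cohorts over 6 to 24 h by their reported probe sets. Npm1, nucleophosmin, read 2894, 2717, 2676 and 2754, and 2841, 2859.9, 2816 and 2801 in TERT-off. In TERT-on it read 2880, 2856, 2523 and 2501, and 2623, 2744, 2774 and 2623. Its difference was 0.05 ± 0.05 over 6 to 24 h and -0.01 ± 0.08 at 6 h, and it was -0.0045 over 6 to 24 h with each array centred on its median. Ncl, nucleolin, read 1528, 1745, 1949 and 1927, and 1846, 2030, 1848 and 2406 in TERT-off. In TERT-on it read 1847, 2275, 2018 and 2032, and 1464, 2102, 2167 and 2023, and its difference was -0.09 ± 0.09. The cohorts overlapped for both genes. The other tested probe sets of Ncl gave -0.26 ± 0.14, -0.19 ± 0.11 and -0.31 ± 0.42, none called. Ncl was among the 25 members that rose in both TERT-off mice and fell in both TERT-on mice from 6 to 24 h. Other members within 0.15 of 0 over 6 to 24 h were Polr1c, Wdr43, Nop14, Pes1, Noc3l, Ddx10 and Ddx18. The remaining members called lower were Polr1a (-0.51), Rrs1 (-0.50), Nolc1 (-0.53), Nme1 (-0.51) and Grwd1 (-0.51), the last with 1 empty value, that of TERT-off mouse 1 at 6 h. With 1 mouse left out they ran from -0.72 to -0.29 for Polr1a, -0.66 to -0.34 for Rrs1 and -0.59 to -0.47 for Nolc1. For Nme1 the range was -0.52 to -0.51 and for Grwd1 -0.51 to -0.48. None of these calls held with every mouse left out.

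Of 28 members with more than 1 tested probe set, 6 were called over 6 to 24 h by the reported one and not by another (Bop1, Nme1, Nolc1, Paics, Polr1a and Tfrc), and 3 the other way round (Noc4l, Rrp1b and Umps). For Polr1a the others gave -0.13 ± 0.11 and -0.86 ± 0.25. For Noc4l the reported one gave -0.22 ± 0.08 and the others -0.43 ± 0.12, -0.45 ± 0.16 and -0.50 ± 0.14, of which the first and the last were called (limma adjusted p = 0.0215 and 0.0212). For Nme1, a nucleoside diphosphate kinase, a second probe set of the kind that shares probes with other transcripts gave -0.00 ± 0.10, and the mean of both was not called. By the ending of their names, the reported probe sets of Odc1, Rrs1, Cad, Fbl, Nop56, Noc4l and Ppat were of that kind too. So were the Noc4l probe sets at -0.45 and -0.50, the dimmest of Paics and the other probe sets of Grwd1. For Umps, which completes pyrimidine synthesis, the reported probe set gave -0.24 ± 0.11 and another -0.62 ± 0.19 (limma adjusted p = 0.033). The other probe sets of Grwd1 were lower at 6 h by more than the reported one, the further at -1.71 ± 0.34 (limma adjusted p = 0.038), and both were called.

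**Figure D3:**
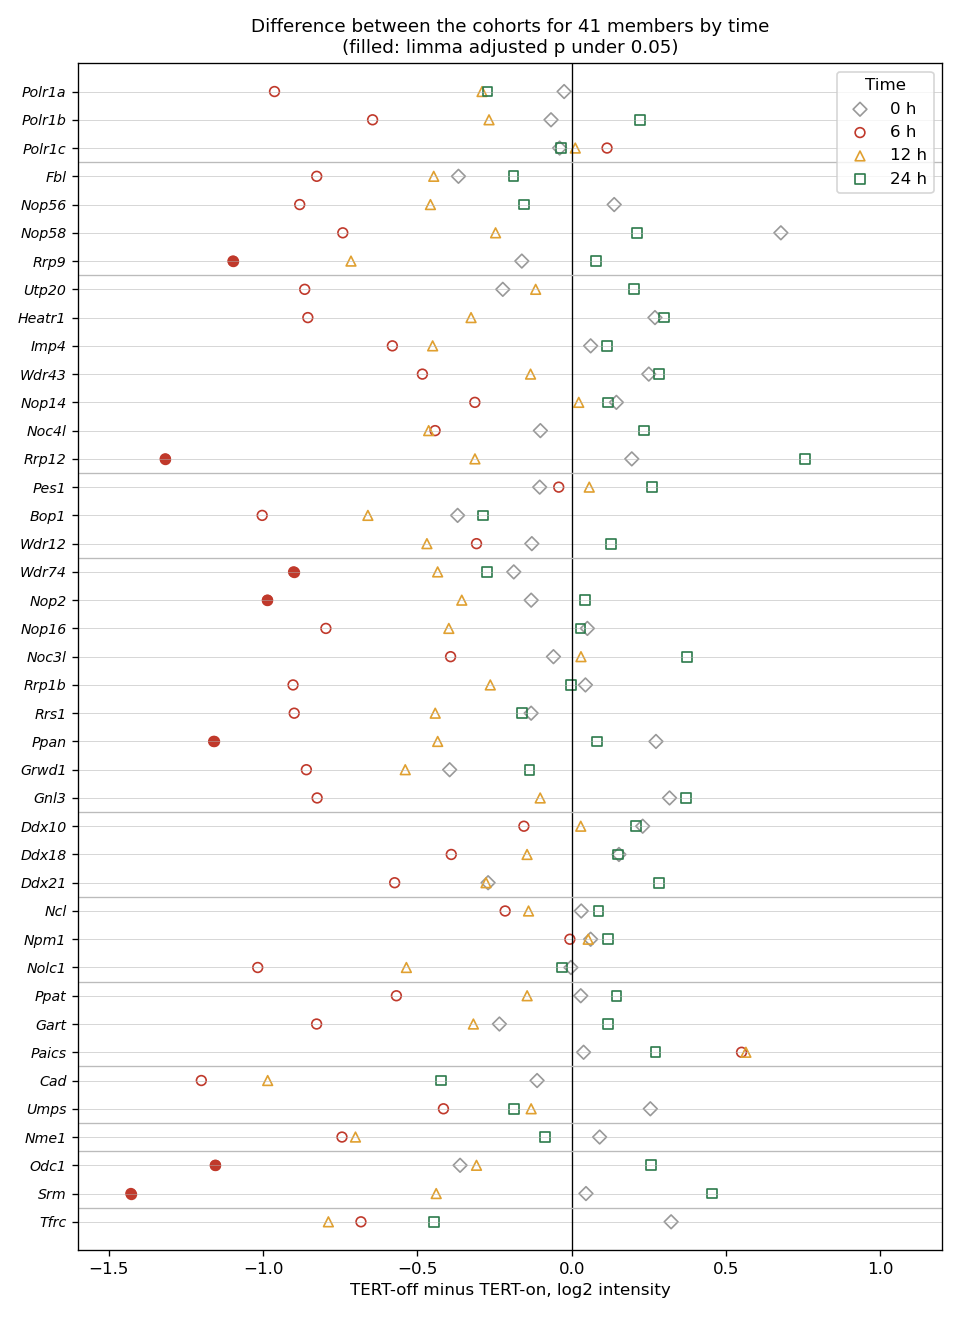
Difference in log2 intensity, TERT-off minus TERT-on (x axis), for the 41 members measured (y axis, grouped by role), with 1 symbol per time and filled symbols where the limma adjusted p was under 0.05. The 6 h circles lie left of 0 for 39 members, and the 24 h squares lie right of 0 for 27.

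Other genes of the same pathways, taken from lists that hold no member, are to be read against the 12.6% of all genes called lower and 16.9% called higher over 6 to 24 h. Of 93 other ribosome assembly genes, 16 were called lower and 2 higher over 6 to 24 h, with a median of -0.17. At 6 h the median was -0.40, with 3 called lower and none higher, where 0.596% and 1.14% of all genes were. At 24 h the median was 0.04. Exosc2, an exosome subunit, was at -0.64 ± 0.15 over 6 to 24 h (limma adjusted p = 0.014) and at -0.11 ± 0.25 at 0 h. Riok2, a kinase of small subunit maturation, was at 0.71 ± 0.22 (limma adjusted p = 0.033), but stood at 0.85 ± 0.35 at 0 h already, not called there. Of 13 other genes of RNA polymerase I transcription, 2 were lower and none higher, the initiation factor Rrn3 (-0.63 ± 0.19) and Tcof1 (-0.39 ± 0.12), which stood at -0.73 ± 0.31 and -0.46 ± 0.20 at 0 h already, not called there. Of 24 other purine and pyrimidine genes, 4 were lower and 3 higher, with CTP synthase (Ctps, -1.45 ± 0.41) and the uridine kinase Uck2 (-0.83 ± 0.18) furthest. The lower counts of the RNA polymerase I, nucleotide and iron lists were near the share of all genes. Of 9 other polyamine genes, 3 were lower, among them Dohh (-0.90 ± 0.14), which completes the spermidine-derived hypusine of eIF5A, and Azin2, an antizyme inhibitor (-0.58 ± 0.15). Of 11 other iron genes, 2 were lower, the iron exporter Slc40a1 (-1.67 ± 0.36) and the mitochondrial importer Slc25a37 (-1.29 ± 0.39), and 3 higher.

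The protein components of the ribosome had a median difference near 0. Of 43 cytosolic ribosomal protein genes measured by a probe set of their own, 1 was called lower and 2 higher over 6 to 24 h. Their median was 0.00, and the shares of all genes called were 12.6% lower and 16.9% higher. The 2 higher were Rpl14 (0.49 ± 0.14) and Rps27 (0.33 ± 0.11), which were at 1.01 ± 0.23 and 0.60 ± 0.17 at 0 h, not called there. At 6 h their median was -0.05 with none called, where the nucleolar members stood at -0.81. At an unadjusted p under 0.05, 6 ribosomal protein genes were lower at 6 h, where 9.6% of all genes were. The difference between these lists was not tested.

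Myc itself ranged from 179.7 to 297 in TERT-off and from 185 to 240.0 in TERT-on after the injection, and its difference over 6 to 24 h was 0.01 ± 0.14 (limma adjusted p = 0.98). This average spans -0.26 ± 0.23 at 6 h, where 190.0 and 211 in TERT-off lay below 239 and 240.0 in TERT-on, and 0.28 ± 0.23 at 24 h, and the change of the effect was 0.53 ± 0.32, none of them called. Mycn, its relative in the hair matrix, read 132, 10.6, 9.88 and 32.0 in TERT-off mouse 1 and 169.7, 254, 50.6 and 66.7 in TERT-off mouse 2. In the TERT-on mice it read 291, 181, 70.8 and 234, and 212, 233, 202 and 214. Mycn was low at 6 h in 1 of the TERT-off mice and in both by 12 h, when TERT-on mouse 1 was low as well. It was called lower over 6 to 24 h (-2.23 ± 0.68, limma adjusted p = 0.033), as was Mycl (-1.17 ± 0.22, adjusted p = 0.006). Of the 12 genes of the Myc, Max and Mad family, these 2 were called, where limma called 12.6% of all genes lower and 16.9% higher. The lower count of the family was thus near the share of all genes.

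Genes of cell division were lower in TERT-off as well. Over 6 to 24 h limma called 12.6% of all genes lower and 16.9% higher. Of 35 DNA replication genes, 19 were called lower and none higher over this span. They were led by the uracil glycosylase Ung (-1.12 ± 0.20) and thymidine kinase Tk1 (-0.93 ± 0.18). Their median was -0.40 at 6 h and -0.27 at 24 h. Their mean went from 6.85 to 7.65 and from 7.38 to 7.45 over that interval in the TERT-off mice. It rose in the TERT-on mice too, from 7.45 to 7.97 and from 7.57 to 7.68. Of 11 markers of dividing cells, 10 were called lower over 6 to 24 h, with a median of -0.27 at 6 h and -1.01 at 24 h. From 6 to 24 h their mean moved from 7.43 to 7.87 in TERT-off mouse 1 and from 8.29 to 6.98 in TERT-off mouse 2. The mean of the members rose in both, from 7.93 to 8.36 in mouse 2. In the TERT-on mice the mean of the dividing cell markers rose from 8.06 to 8.63 and from 8.23 to 8.39, whereas that of the members fell. At 6 h TERT-off mouse 2 thus lay above both TERT-on mice for these markers. At 0 h TERT-off minus TERT-on was -0.22 for their mean already. The course in time was not tested between these lists. Over the same interval neutrophil markers rose in TERT-off mouse 2 from 6.28 to 8.79 and in TERT-off mouse 1 from 6.83 to 7.84. The part of these cells in the levels of the members was not tested.

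Measured against each cohort's own start, the average of 6, 12 and 24 h gave no call among the members. Within TERT-off the median change was -0.08, with 4 lower and 1 higher at an unadjusted p under 0.05, where 8.2% of all genes were lower and 9.65% higher at that p and 0.493% were called. Within TERT-on it was 0.24, with 10 higher and none lower at that p, where 6.94% of all genes were higher, 12.7% lower and 0.183% called. The changes differed between the cohorts by a median of -0.30, with 7 lower and 1 higher at that p, where 4.13% of all genes were lower, 10.2% higher and 0.00795% called.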

How the data were processed

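Dorsal skin of 2 TERT-on and 2 TERT-off mice was profiled on 16 Affymetrix mouse genome arrays. The deposited table gives, for each of 45101 probe sets, a linear intensity that the authors computed in dChip, by invariant set normalization and a model of perfect-match minus mismatch signals, so that low values are uncertain. Array medians lay between 32.9 and 36.3, and the number of arrays limits the precision. After removal of 64 control probe sets, a floor was set at the 20th percentile of all values (7.71), log2 was taken, and probe sets were kept if they exceeded the table's median (34.4) on at least 2 arrays and had a value in every group (25563). A gene was represented by its probe set with the highest mean, and genes came from probe sets with 1 gene symbol.

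All tests came from 1 two-sided limma fit (3.58.1, R 4.3.3, statmod 1.5.0) of a mean per group, with mouse as a random effect (correlation 0.0728), an intensity trend, Benjamini-Hochberg adjustment over all 25563 probe sets and a threshold of 0.05. The study's own method, SAM, was not used here. Arrays with the same replicate number in a cohort were taken as 1 mouse, since the methods describe serial biopsies. Deviations of arrays of 1 mouse at different times correlated by 0.16 to 0.73 in TERT-off and by -0.26 to 0.33 in TERT-on. The fit used the 1 correlation of 0.0728 for all probe sets. Its p-values therefore rest mostly on the scatter between arrays and little on the spread between the 2 mice of a cohort. With arrays taken as independent, 24 results for single members all kept their sign and stayed called or not called as before. Fold changes are differences of log2 values.

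Members and lists were chosen with earlier results of these data known. Intensities per array are given for the 8 members with the smallest p over 6 to 24 h, the 6 with the smallest p for the change of the effect, and Odc1, Cad, Ncl, Tfrc and Npm1, and for other lists at most the 2 called genes with the largest difference. The script was tested on simulated data. Alternatives covered the floor, the filter, scaling, blocks, moderation, probe sets and libraries left out. Promoter windows are from RefSeq (GRCm38.p6), and figures were drawn with matplotlib 3.10.9.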

Additional observations from a re-analysis of the deposited data

Results flagged for a closer look

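For 2 members the difference of TERT-off from TERT-on itself differed between 6 and 24 h by the test of the difference itself. For Rrp12 the change of the effect, 24 h minus 6 h, was 2.07 ± 0.28 on the log2 scale, and for Srm it was 1.88 ± 0.25 (limma adjusted p = 0.017 for both). With 1 mouse left out it ran from 1.91 to 2.23 for Rrp12 and from 1.86 to 1.91 for Srm, positive each time and no longer called. Groups of 2 arrays were too small to tell which array of a group was the outlying one. Across all arrays, that of TERT-off mouse 1 at 6 h and the poor 0 h array of TERT-on mouse 1 stood apart, as given above.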

How the results depend on the processing

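The signs of the median and of nearly all members named held, while the calls depended on the mice. Over 6 to 24 h the count of members called was 13 to 21 under the other settings that keep every mouse, 0 to 19 with 1 mouse left out, and 4 with 12 and 24 h only. That alternative, and leaving out the 6 h array of TERT-off mouse 1 (10 members), were chosen after seeing the data. At 6 h it was 3 with no filter and 0 to 24 with a mouse or array left out, at 12 h 0 to 2, for the change of the effect 0 to 2, and for 24 h minus 6 h within TERT-off 0 to 3. The median over 6 to 24 h was -0.10 with 12 and 24 h only. The sign of Srm turned with 12 and 24 h only (0.0071), a mean of 2 times at which both TERT-off arrays lay below, then above, both TERT-on arrays. The sign of Npm1 turned with each array centred (-0.0045), and the cause was not tested.

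With each mouse as a fixed effect (a replicate block within cohorts) the counts were 17 over 6 to 24 h, 10 at 6 h, 2 at 12 h and 2 within TERT-off. That fit sets the cohorts against the scatter within mice and leaves out the spread between the 2 mice of a cohort. With the replicate number as a block across cohorts the counts were 18, 10, 1 and 3. Same-numbered mice of the cohorts share only a number, and their deviations correlated by 0.27. With arrays taken as independent, or no intensity trend, the count within TERT-off was 2. The other counts under these blocks were the main ones. Leaving a cohort with 1 mouse assumes that it varies like the other cohort. With 2 arrays in a group, their number limits what can be called. At 0 h, at 24 h, within TERT-on and for the changes from 0 h the count was 0 under every alternative run.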
